A study of Mus musculus with 6 samples.

Results

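Chemokines are small secreted proteins that draw leukocytes along a gradient through G protein-coupled receptors, and they are grouped by the spacing of their first cysteines into CC, CXC and XC families. Activated CD8+ T cells release the CC chemokines Ccl3, Ccl4 and Ccl5 and the XC chemokine Xcl1, while neutrophils and macrophages release Ccl3, Ccl6, Ccl9 and the neutrophil attractant Cxcl2. Cxcl9 and Cxcl10 are induced by interferons and attract activated T cells, and Cxcl16 is anchored in the membrane of antigen-presenting cells until a protease frees it. The 10 chemokine genes described here, Ccl3, Ccl4, Ccl5, Ccl6, Ccl9, Xcl1, Cxcl2, Cxcl9, Cxcl10 and Cxcl16, were chosen by name as products of CD8+ T cells or of neutrophils and macrophages. All 10 were found among the 35458 gene identifiers of the files.

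RNA-seq was run on CD8+ T cells taken from the spleen, with 3 libraries of the genotype Cd4cre, called control, and 3 of the genotype Cd4creGlut10fl/fl, called KO. Both groups carry Cd4cre, which drives Cre recombinase in developing T cells, and by their labels they differ in the floxed Glut10 gene (Slc2a10, a facilitative hexose transporter). Age, sex, any stimulation and whether each library is a mouse of its own are not given in the labels, so the p-values measure only how far these libraries spread, and that spread may be technical. Levels are FPKM, fragments scaled to gene length and library total, and so can be compared between genes.

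The totals implied by the values were 11840640 to 15036282 fragments in the controls and KO 2, but 3420291 and 3004540 in KO 1 and KO 3. Slc2a10 held 4, 2 and 2 implied reads in control 1, 2 and 3, but 0 in each KO library, too few to check the deletion. Summed over 12 T cell markers, which include Cd8a and Cd8b1, the level was 1586, 491 and 388 FPKM across control 1, 2 and 3, against 1564, 2431 and 1565 across KO 1, 2 and 3, with no marker at 0. A list of 11 neutrophil markers summed to 429, 16525 and 29175 FPKM in the controls and 255, 66.7 and 676 in the KO libraries, again with none at 0. Receptor genes of smell and pheromone neurons, 905 in all, summed to 971 and 1008 FPKM in KO 1 and KO 3 and to between 17.1 and 77.1 in the other 4 libraries. Control 2 and 3 and KO 1 and 3 therefore stand apart, and the results of the 10 genes are also given without them.

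RefSeq promoter windows (build GRCm38.p6) were matched by symbol for 7 of the 10 genes. The 250 bases before the start are shown for the 4 matched genes whose KO libraries all lay below the controls, Ccl3, Ccl6, Ccl9 and Cxcl2, and for Cxcl10 as an interferon-induced gene for comparison. Capitals mark the binding motif of NF-kappaB, the interferon response element (GAAA, any pair of bases, then GAAA again), and ACTTCC, a core bound by ETS factors such as PU.1 of myeloid cells, each searched on both strands.
Ccl3, chr11:83649379-83649628, minus strand: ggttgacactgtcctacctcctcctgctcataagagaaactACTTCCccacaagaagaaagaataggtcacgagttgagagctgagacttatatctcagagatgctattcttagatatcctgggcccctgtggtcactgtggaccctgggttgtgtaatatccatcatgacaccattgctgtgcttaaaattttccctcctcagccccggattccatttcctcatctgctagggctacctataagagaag
Ccl6, chr11:83593088-83593337, minus strand: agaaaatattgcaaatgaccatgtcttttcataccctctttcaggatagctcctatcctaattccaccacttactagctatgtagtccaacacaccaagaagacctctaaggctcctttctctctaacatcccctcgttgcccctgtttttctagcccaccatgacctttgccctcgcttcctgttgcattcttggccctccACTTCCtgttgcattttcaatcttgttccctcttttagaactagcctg
Ccl9, chr11:83578637-83578886, minus strand: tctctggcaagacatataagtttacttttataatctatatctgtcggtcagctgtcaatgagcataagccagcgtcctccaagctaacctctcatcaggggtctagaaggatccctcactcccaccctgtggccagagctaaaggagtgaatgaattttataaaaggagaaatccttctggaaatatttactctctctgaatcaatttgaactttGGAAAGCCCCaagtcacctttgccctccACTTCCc
Cxcl2, chr5:90903649-90903898, plus strand: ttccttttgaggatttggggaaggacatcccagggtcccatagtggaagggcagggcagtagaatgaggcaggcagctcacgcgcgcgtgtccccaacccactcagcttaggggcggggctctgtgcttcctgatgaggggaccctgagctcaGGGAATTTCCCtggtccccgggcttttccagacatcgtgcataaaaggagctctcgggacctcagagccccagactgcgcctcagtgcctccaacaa
Cxcl10, chr5:92348890-92349139, minus strand: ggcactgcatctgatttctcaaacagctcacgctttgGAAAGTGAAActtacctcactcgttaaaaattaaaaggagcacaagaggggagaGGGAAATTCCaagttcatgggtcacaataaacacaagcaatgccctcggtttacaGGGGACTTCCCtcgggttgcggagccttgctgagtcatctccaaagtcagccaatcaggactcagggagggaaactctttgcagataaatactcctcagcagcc

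Cxcl2, Ccl9 and Cxcl10 held an NF-kappaB motif in their windows, a motif present in 7.25% of 32851 promoter windows of this length. The match in Cxcl2 is the overlapping pair GGGAATTTCC and GGAATTTCCC, and that in Ccl9 is GGAAAGCCCC. Cxcl10 held 3 such matches, of which GGGGACTTCC and GGGACTTCCC overlap each other and the ACTTCC core, and it was the only matched gene with the interferon response element, GAAAGTGAAA (2.98% of windows). ACTTCC or its complement was found in each matched window other than that of Cxcl2, against 19.7% of all windows. The motifs were chosen with these sequences in view, so the shares beside them measure no enrichment. Ccl6 and Ccl9, neighbouring relatives on the same strand, share the run GCCCTCCACTTCC, 13 bases long, close to both starts. These matches describe letters in the windows and are not binding sites measured in these cells.

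In the KO libraries 5 of the 10 chemokines, Ccl3, Ccl4, Ccl6, Ccl9 and Cxcl2, lay below all 3 controls, and 0 lay above them. Among all 13956 genes tested, every KO library lay below every control for 9.44% and above every control for 6.70%. None of the 10 passed the test over all genes, limma on log2(FPKM + 1) with Benjamini-Hochberg adjustment at 0.05, and neither did any other gene (0%). At an unadjusted limma p under 0.05 there were 5 members, the same 5 genes and all lower in KO, beside 6.46% of all genes tested that were lower in KO at this level. The median log2 difference was -1.03 over the 10 chemokines and 0.10 over all genes tested. The members were picked with earlier results of these data known, so this contrast with all genes is a description.

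**Figure D1:**
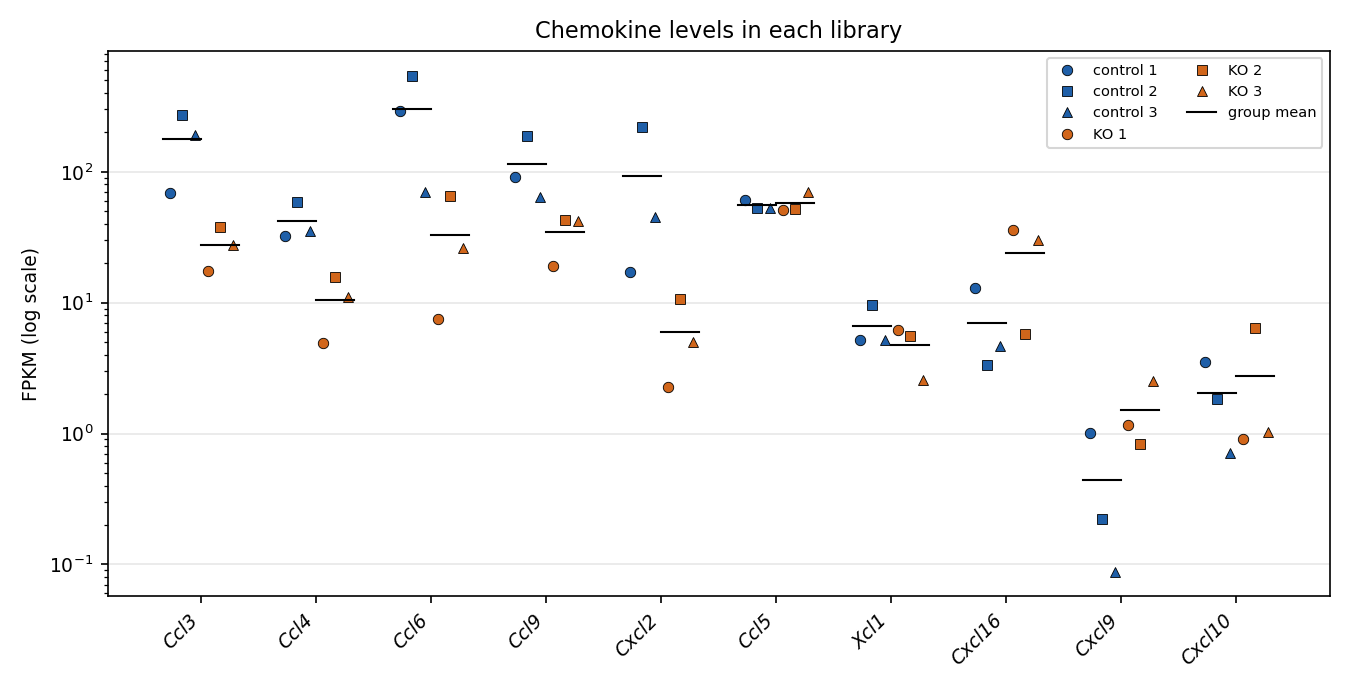
Level of each of the 10 chemokines (FPKM, log axis) in the 3 control libraries (blue) and 3 KO libraries (orange), with marker shape for the replicate number and a line at each group mean. For Ccl3, Ccl4, Ccl6, Ccl9 and Cxcl2 every orange point lies below every blue point, while the points of Ccl5 all lie between 51.2 and 69.7 FPKM.

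Ccl3 and Ccl4 (MIP-1 alpha and beta), which attract monocytes and T cells, lay below the controls in every KO library. Ccl3 (ENSMUSG00000000982) measured 69.1, 274 and 192 FPKM across control 1, 2 and 3, against 17.6, 37.5 and 27.4 across KO 1, 2 and 3. Control 1 was the lowest control and still stood above KO 2, the highest KO library. The log2 difference was -2.51 (SE 0.55), with a 95% interval of -3.83 to -1.18 and a limma adjusted p of 0.417. Ccl4 (ENSMUSG00000018930) measured 32.4, 58.4 and 35.2 FPKM in the controls and 4.87, 15.7 and 11.1 in the KO libraries. Its controls lay closer together than those of Ccl3, within 1.80-fold of each other against 3.96-fold. The log2 difference of Ccl4 was -1.97 (SE 0.44, limma adjusted p = 0.417). In KO 1 the Ccl4 level rests on 11 implied reads, with a Poisson interval of 2.43 to 8.72 FPKM that covers counting error only.

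The balance of Ccl3 to Ccl4, a ratio taken within each library and so free of library scaling, was 2.14, 4.68 and 5.45 in control 1, 2 and 3. It was 3.60, 2.39 and 2.47 in KO 1, 2 and 3, so the groups overlap and the higher ratios belong to control 2 and 3. When control 1 alone stood for the controls, the log2 difference of Ccl3 was -1.36 and that of Ccl4 -1.66. Without KO 1 and 3 the log2 differences were -2.01 and -1.32. In these settings the lone library is assumed to vary like those of the other group, and no p is taken from them.

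Ccl6 and Ccl9, relatives that mouse myeloid cells make and that act through Ccr1, were among the most abundant members in the controls. Ccl6 (ENSMUSG00000018927) measured 291, 544 and 70.1 FPKM across control 1, 2 and 3, against 7.49, 65.5 and 26.0 across KO 1, 2 and 3. The groups barely separate, since control 3 and KO 2 are close, and both groups spread widely, 7.75-fold among controls and 8.74-fold among KO libraries. The log2 difference was -3.18 (SE 0.98, limma adjusted p = 0.417), -3.56 without control 2 and 3 and -1.76 without KO 1 and 3. Ccl9 (ENSMUSG00000019122) measured 90.7, 189 and 64.3 FPKM in the controls and 19.0, 42.6 and 42.1 in the KO libraries, a narrower spread than that of Ccl6. Its log2 difference was -1.64 (SE 0.49, limma adjusted p = 0.417), -1.45 without control 2 and 3 and -1.26 without KO 1 and 3. Ccl6 exceeded Ccl9 by 3.21, 2.88 and 1.09 times in control 1, 2 and 3, and stood at 0.394, 1.54 and 0.617 times Ccl9 in KO 1, 2 and 3. Reads that such relatives may share were not measured, so the split within the pairs Ccl3 and Ccl4 or Ccl6 and Ccl9 carries that uncertainty.

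Cxcl2 (ENSMUSG00000058427, MIP-2), which recruits neutrophils through Cxcr2, showed the widest range of the 10 genes. It measured 17.2, 218 and 45.1 FPKM across control 1, 2 and 3, against 2.26, 10.7 and 4.99 across KO 1, 2 and 3. Control 2 stood far above all other libraries, and the highest level was 96.4 times the lowest. That lowest level, in KO 1, rests on 16 implied reads, with a Poisson interval of 1.29 to 3.67 FPKM, and that of KO 3 on 31. The log2 difference was -3.22 (SE 0.95, 95% interval -5.50 to -0.93, limma adjusted p = 0.417). It was -1.57 without control 2 and 3, -2.28 without KO 1 and 3 and -2.24 without control 2 alone.

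For Ccl3, Ccl4, Ccl6, Ccl9 and Cxcl2 alike, control 2 was the highest library and KO 1 the lowest, and the KO libraries had the order KO 2, KO 3, KO 1. Among the controls Ccl3, Ccl4 and Cxcl2 had the order control 2, control 3, control 1, which is also that of the macrophage marker sum, while Ccl6 and Ccl9 had the order control 2, control 1, control 3. Among the KO libraries both myeloid marker sums had the order KO 3, KO 1, KO 2, unlike the 5 genes. The neutrophil sum was highest in control 3, where Ccl6 and Ccl9 were lowest among the controls. Among KO libraries it was lowest in KO 2, where all 5 genes were highest. The 15 macrophage markers summed to 3185, 7322 and 6415 FPKM across control 1, 2 and 3, against 1663, 518 and 3534 across KO 1, 2 and 3, with none at 0 and the lowest sum again in KO 2. Between the groups, 10 of 10 tested neutrophil and 12 of 14 tested macrophage markers had lower estimates in KO, beside 6015 of 13956 genes tested. Of those 12, C1qa, C1qb, C1qc, Marco and Vcam1 had a higher mean FPKM in KO, and the rest a lower one. The C1qb means were 15.7 in the controls and 35.9 in KO. For 3 tested genes of each list the KO libraries all lay below the controls, beside 9.44% of all genes tested. Ly6g, a neutrophil marker that did not pass the filter, also lay lower in every KO library. Both sums follow their most abundant genes, S100a8 and S100a9 for neutrophils and Lyz2 and Hmox1 for macrophages. Cd14, a macrophage marker named after its values were seen, had the same order of libraries as Ccl3, Ccl4 and Cxcl2. It measured 52.1, 191 and 53.6 FPKM across control 1, 2 and 3, against 8.74, 23.6 and 17.8 across KO 1, 2 and 3. Every other marker of both lists was lowest in KO 2 among the KO libraries. The part of myeloid RNA in the chemokine differences was not tested. In these bulk libraries fewer cells of a type cannot be told apart from less RNA per cell.

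**Figure D2:**
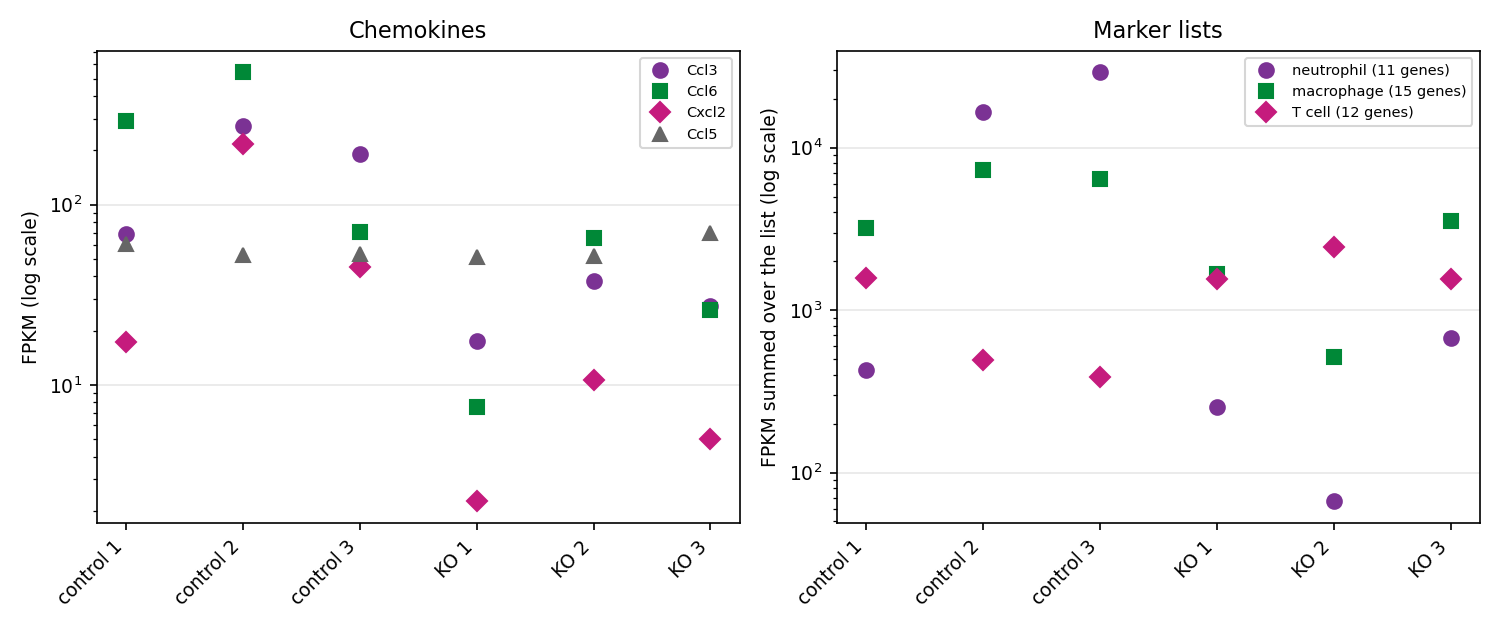
Levels by library of Ccl3, Ccl6, Cxcl2 and Ccl5 (left, FPKM, log axis) and of the summed neutrophil, macrophage and T cell marker lists (right, FPKM summed over each list, log axis). The neutrophil sum peaks at 29175 in control 3 and is lowest in KO 2, at 66.7, while Ccl6 is at 70.1 FPKM in control 3 and 65.5 in KO 2.

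Leaving out 1 library moved calls of these genes. Without control 1, Ccl3 was called lower (limma adjusted p = 0.0294), the only member among 363 genes called (2.60% of genes tested), of which 217 were lower (1.55%). Without KO 2, Ccl3, Ccl4 and Ccl6 were called lower (limma adjusted p = 0.0299, 0.0155 and 0.0404) and Cxcl16 higher (limma adjusted p = 0.0345). These members were among 1821 genes called (13.0%), of which 134 were lower (0.960%) and 1687 higher. Ccl9 and Cxcl2 had limma adjusted p of 0.0886 and 0.0627 in that setting. With any of the other 4 libraries left out singly, no member was called, and limma adjusted p of these 5 genes were 0.708 to 0.801.

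**Figure D3:**
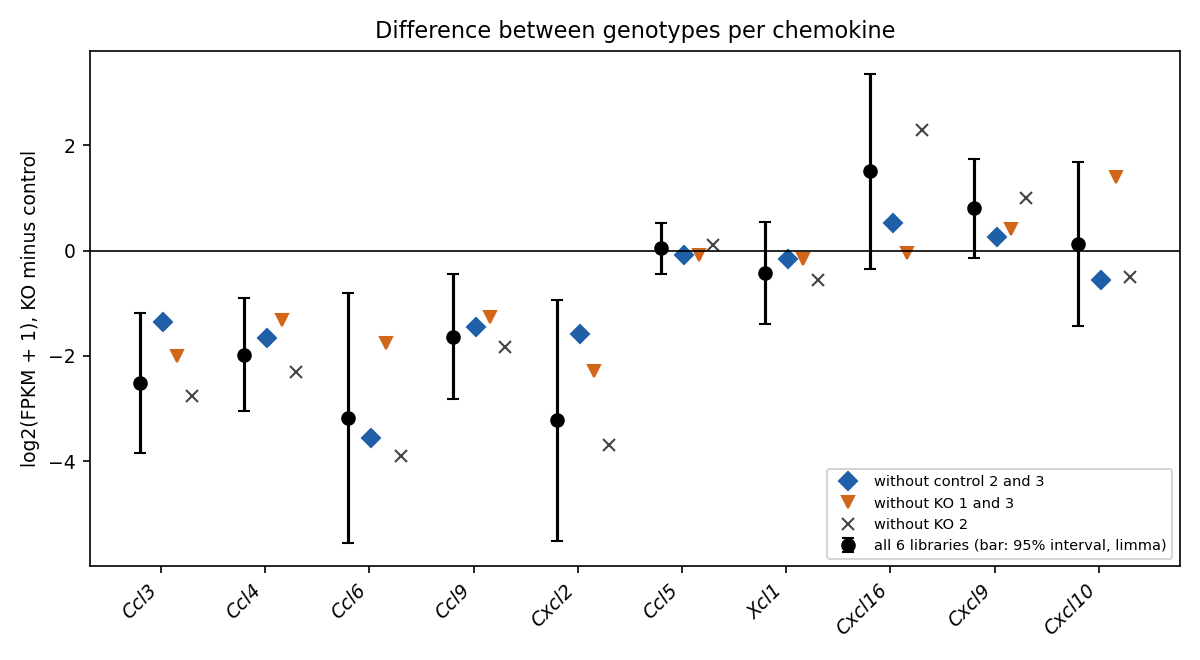
Difference in log2(FPKM + 1), KO minus control, for each chemokine with all 6 libraries (black point, bar for the 95% limma interval) and with libraries left out (coloured markers). The estimates of Ccl3, Ccl4, Ccl6, Ccl9 and Cxcl2 lie below 0 in every setting shown, and that of Cxcl16 moves from 1.502 to -0.055 without KO 1 and 3.

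Ccl5 (ENSMUSG00000035042, RANTES), which memory and effector CD8+ T cells store and release, lay in a narrow range in all 6 libraries. It measured 60.7, 52.8 and 53.2 FPKM across control 1, 2 and 3, against 51.2, 51.9 and 69.7 across KO 1, 2 and 3. The groups overlap, and the highest library exceeded the lowest by 1.36-fold, the smallest range of the 10 genes. The log2 difference was 0.04 (SE 0.20) with a 95% interval of -0.45 to 0.53 and a limma adjusted p of 0.937, so a 2-fold difference, 1 on this scale, lies outside the interval. Its sign was negative after quantile normalization and without KO 3, at -0.064 and -0.10, and again, at -0.089 and -0.093, with control 1 as the lone control or KO 2 as the lone KO library. Cd8a varied far more, with 191, 30.3 and 31.8 FPKM in the controls and 101, 252 and 90.7 in the KO libraries, as did the T cell marker sum. Ccl3 relative to Ccl5, taken within each library, was 1.14, 5.18 and 3.60 in the controls and 0.343, 0.723 and 0.393 in the KO libraries, with no overlap.

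Xcl1 (ENSMUSG00000026573, lymphotactin), through which CD8+ T cells and NK cells attract cross-presenting dendritic cells, was low in both groups. It measured 5.17, 9.55 and 5.21 FPKM across control 1, 2 and 3, against 6.15, 5.60 and 2.55 across KO 1, 2 and 3. The groups overlap, with the highest value in control 2 and the lowest in KO 3. These levels rest on 32, 75 and 41 implied reads in the controls and 11, 43 and 4 in the KO libraries, and the Poisson interval of KO 3, 0.694 to 6.52 FPKM, takes in all but 1 of the other 5 values. For Xcl1 the log2 difference was -0.42 (SE 0.40, 95% interval -1.39 to 0.54, limma adjusted p = 0.601). It was -0.11 without KO 3, -0.17 without control 2, -0.16 both without control 2 and 3 and without KO 1 and 3, and -0.74 after quantile normalization. Gm20743, a noncoding gene that overlaps Xcl1 on the other strand, measured 0.324, 0.431 and 0.638 FPKM in the controls and 6.87, 0.261 and 8.46 in the KO libraries. Whether the counting used strand is not given in the sources used here, so reads of the pair cannot be told apart.

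Cxcl16 (ENSMUSG00000018920), the membrane-bound ligand of Cxcr6, was high in KO 1 and KO 3 and not in KO 2. It measured 12.9, 3.33 and 4.69 FPKM across control 1, 2 and 3, against 36.1, 5.73 and 30.1 across KO 1, 2 and 3. KO 2 lay inside the range of the controls, so the groups overlap. For Cxcl16 the log2 difference was 1.502 (SE 0.76, limma adjusted p = 0.419), 2.28 without KO 2 and -0.055 without KO 1 and 3. It was 0.51 without control 2 and 3. KO 1 and 3 are the libraries with the high sensory receptor sums, and Zmynd15, which overlaps Cxcl16 on the other strand, measured 13.6 and 8.45 FPKM there against 0.257 to 3.68 in the other 4. Their part in the Cxcl16 level was not tested.

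Cxcl9 (ENSMUSG00000029417) and Cxcl10 (ENSMUSG00000034855), the interferon-induced ligands of Cxcr3, were the lowest of the 10 genes by mean level over the 6 libraries. Cxcl9 measured 1.01, 0.221 and 0.0882 FPKM across control 1, 2 and 3, or 36, 10 and 4 implied reads, and 1.16, 0.835 and 2.54 in KO 1, 2 and 3, or 12, 37 and 23 reads. Control 2 and 3 were low and the other 4 libraries overlap. For Cxcl9 the log2 difference was 0.80 (SE 0.39, limma adjusted p = 0.417). It was 0.26 with control 1 as the lone control, 0.40 with KO 2 as the lone KO library and 0.52 without KO 3, but 1.85 with a pseudocount of 0.1 and 2.05 by limma-voom on implied reads. Cxcl10 measured 3.53, 1.83 and 0.709 FPKM in the controls and 0.909, 6.35 and 1.03 in the KO libraries. KO 2 was the highest library and KO 1 and 3 lay near the lowest control, with 7 reads each. For Cxcl10 the log2 difference was 0.13 (SE 0.65, 95% interval -1.43 to 1.69, limma adjusted p = 0.936), -0.51 without KO 2, -0.57 without control 2 and 3, 1.39 without KO 1 and 3 and 1.17 by limma-voom. Art3, which spans Cxcl10 on the other strand, measured 4.02 and 3.47 FPKM in KO 1 and 3 and at most 0.329 in the other 4 libraries.

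By the summed FPKM of the 10 genes, the controls held 584, 1349.7 and 470.4 and the KO libraries 147, 242 and 217. Ccl6 made up 49.9%, 40.3% and 14.9% of that sum across control 1, 2 and 3, against 5.11%, 27.0% and 11.9% across KO 1, 2 and 3. Ccl5 made up 10.4%, 3.91% and 11.3% in the controls and 34.9%, 21.4% and 32.1% in the KO libraries, without overlap between groups. The leading chemokine was Ccl6 in control 1, control 2 and KO 2, Ccl3 in control 3, and Ccl5 in KO 1 and KO 3. Ranked among the genes tested in the same library, Ccl3 stood at percentile 94.2 to 98.5 in the controls and 70.3 to 87.9 in the KO libraries, while Ccl5 stood at 91.1 to 93.3 throughout.

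Of the other 28 chemokine genes listed, 25 were found in the files and 9 passed the filter of at least 1 FPKM in at least 3 libraries. None of the 9 was called, all 9 overlapped between groups, 6 had lower and 3 higher estimates, and the median log2 difference was -0.68. Ccl2 and Ccl7, monocyte attractants, were highest in control 1. Ccl2 measured 161, 59.5 and 6.08 FPKM in the controls and 8.48, 8.08 and 22.2 in the KO libraries, and Ccl7 46.0, 17.0 and 1.91 against 8.03, 0.765 and 9.14. Cxcl3, a neutrophil attractant related to Cxcl2, measured 60.3, 155 and 3.19 FPKM in the controls and 3.68, 8.16 and 5.33 in the KO libraries. Unlike for Cxcl2, control 3 was the lowest of the 6 libraries for Cxcl3, and Cxcl2 over Cxcl3 was 14.1 there against 0.285 to 1.41 elsewhere.

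Ccl22 and Ccl17, ligands of Ccr4 made by dendritic cells and activated lymphocytes, were both highest in control 1 and second in KO 2. Ccl22 measured 127, 14.8 and 14.96 FPKM in the controls and 39.2, 59.8 and 27.5 in the KO libraries, and Ccl17 27.4, 1.55 and 1.94 against 0, 10.1 and 4.53. Pf4 and Ppbp, the platelet chemokines, measured 216, 178 and 51.5 FPKM and 95.1, 49.7 and 5.47 in the controls. In the KO libraries they measured 147, 40.9 and 656, and 17.3, 6.79 and 52.2, with KO 3 standing out for Pf4. Cxcl5 had means of 3.41 ± 2.45 and 0.848 ± 1.04 FPKM (SD, n = 3 each) and Ccl27a 1.26 ± 0.196 and 2.28 ± 0.967. The median of these 9 genes turned to 0.12 without control 1. It moved further down to -1.77 when control 3 was left out, to -2.29 with control 1 as the lone control and to -1.74 with KO 2 as the lone KO library.

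**Figure D4:**
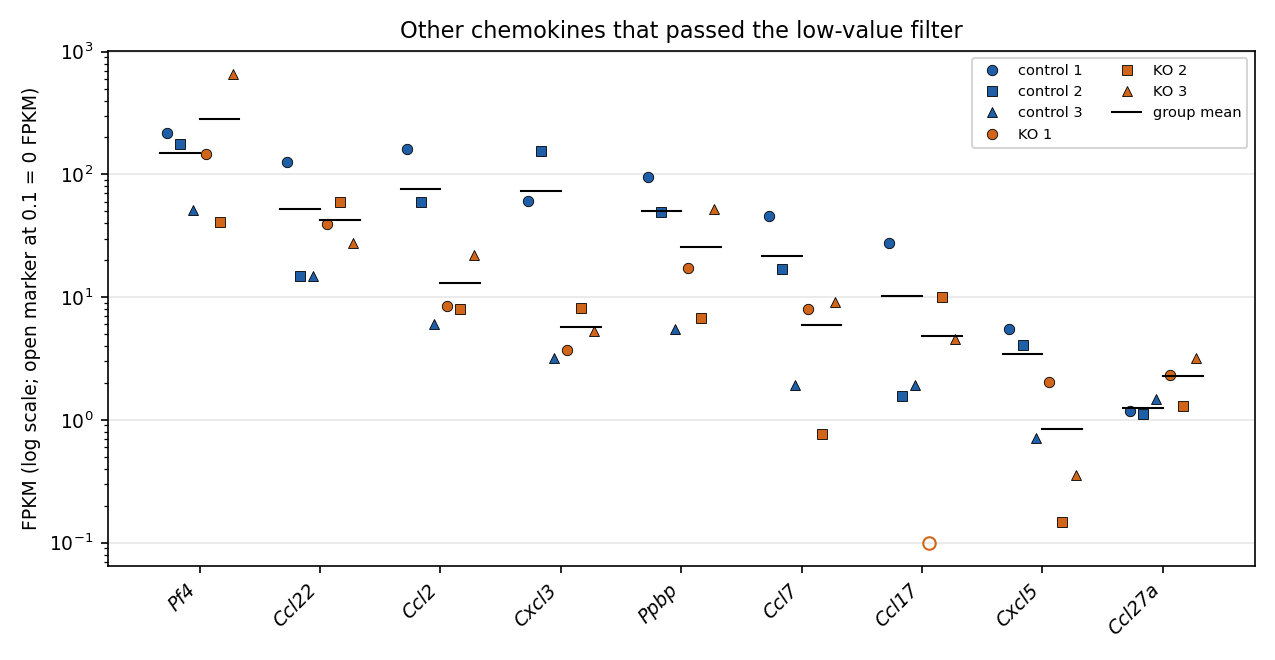
Levels (FPKM, log axis) of the 9 other chemokines that passed the low-value filter, in 3 control (blue) and 3 KO (orange) libraries, with a line at each group mean. Blue and orange points overlap for all 9 genes, and the open marker stands for the 0 FPKM of Ccl17 in KO 1.

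Among 8 receptors of the 10 chemokines, 4 were tested and 0 called, with 3 lower and 1 higher estimate and a median of -0.89. Ccr1, the receptor of Ccl3, Ccl5, Ccl6 and Ccl9 on myeloid cells, measured 21.7, 116 and 88.2 FPKM in the controls and 26.7, 7.33 and 31.3 in the KO libraries, which overlap. Cxcr6, the Cxcl16 receptor, measured 39.4 ± 20.5 and 42.8 ± 7.81 FPKM (SD, n = 3 each), and Cxcr3 12.2 ± 3.60 and 14.4 ± 12.9. Cxcr2, the neutrophil receptor of Cxcl2, measured 1.41, 9.41 and 32.3 FPKM in the controls and 0.863, 0.313 and 0.983 in the KO libraries. Its groups did not overlap, alone among the 4 tested, while 9.44% of all genes tested lay below every control in every KO library. Only the 3 controls brought Cxcr2 past the filter of 1 FPKM in 3 libraries, which already fixed that outcome. Cxcr2 was named after its values were seen, as were Ccr3 and Ackr1, which did not pass the filter. Ccr3 and Ackr1 also lay lower in every KO library, at 0.361 to 0.692 against 0 to 0.312 FPKM and at 0.180 to 2.08 against 0 to 0.0969. Ccr3 was at 0 in KO 1 and Ackr1 in KO 1 and KO 3, the libraries with the lowest totals. In a gene of 1 kb, 3 reads equal 0.877 FPKM in KO 1 and 0.998 in KO 3, so a 0 there cannot be told from a low level. With KO 2 alone as the KO group, the receptor median was -1.40, and with control 1 alone as the control group -0.46.

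Of 5 listed genes, which apart from Cd74 store, shed or trim chemokines, all were tested, 0 were called, and 3 had lower and 2 higher estimates (median -0.48). Adam10, the protease that sheds Cxcl16, measured 34.7 ± 5.44 and 24.6 ± 3.49 FPKM (SD, n = 3 each). Srgn, the proteoglycan core of secretory granules, measured 357 ± 211 and 163 ± 50.8 FPKM, and Cd74, the MHC class II invariant chain, 163 ± 126 and 231 ± 100.1. Dpp4, a protease that trims Cxcl10 and also named after its values were seen, had the largest difference of the list, in the other direction. It measured 23.8, 5.15 and 3.57 FPKM in the controls and 32.2, 49.1 and 21.4 in the KO libraries, which overlap, with a log2 difference of 1.92 (SE 0.68, limma adjusted p = 0.417). Adam17, a protease related to Adam10 and named after its values were seen, did not overlap between groups, and neither did Adam10. These 2 of the 5 genes stand beside 9.44% of all genes tested that lay below every control in every KO library. Adam17 measured 19.2, 25.7 and 28.0 FPKM in the controls and 10.5, 11.6 and 8.98 in the KO libraries. Its log2 difference was -1.15 (SE 0.23, limma adjusted p = 0.417).

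The interferon gamma axis, which induces Cxcl9 and Cxcl10, had 9 of 9 genes tested, 0 called, 6 higher and 3 lower estimates and a median of 0.67, and -0.013 without control 2 and 3. Jak1 measured 97.1 ± 41.1 and 138 ± 31.3 FPKM, Ifngr1 117 ± 26.4 and 106 ± 53.6, and Irf1 35.3 ± 24.1 and 68.9 ± 40.01 (SD, n = 3 each). Ifng itself, named after its values were seen, measured 1.70, 0.720 and 0.770 FPKM in the controls and 11.7, 0.473 and 15.4 in the KO libraries. Like Cxcl16 it was high in KO 1 and KO 3, the libraries with the lowest totals and the high sensory receptor sums. A link between Ifng and Cxcl16 was not tested. In the NF-kappaB list every KO library lay below every control for 1 gene, beside 9.44% of all genes tested. This list also had 9 of 9 genes tested and 0 called, with 5 higher and 4 lower estimates and a median of 0.11. That median changed sign with the libraries used, at 0.38 without control 1, -0.045 without control 3 and -0.39 without control 2 and 3. Its most abundant genes, Nfkbia, Rela and Nfkb2, measured 137 ± 35.3 and 148 ± 27.4, 62.6 ± 17.2 and 72.9 ± 14.5, and 51.6 ± 18.3 and 54.7 ± 12.1 FPKM.

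Of 4940 protein-coding genes with a mean of at least 10 FPKM, Casp1, the inflammasome protease, followed Ccl3 most closely over the 6 libraries, with a Pearson r of log2 values of 0.996. Serp1 (r = 0.993) and Mapkapk2, a kinase downstream of p38 (r = 0.993), came next. Casp1 measured 22.5, 55.9 and 43.3 FPKM across control 1, 2 and 3, against 11.5, 17.8 and 13.3 across KO 1, 2 and 3. The genes nearest to Ccl5 were Map2k2 (r = 0.970), Ist1 (r = 0.928) and Bcat2 (r = 0.916). These r describe 6 libraries in 2 groups that share depth and cell makeup, and they were picked as the highest of many.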

How the data were processed

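The authors deposited 1 value per gene and library, read here as FPKM from the values themselves, since no unit is stated in the files. Per the submitters' processing notes, the build was mm8 and the tools included HTSeq 0.6.0, Bowtie2 2.2.3 and HISAT2 (version 2), with no role or order. The annotation and strand setting are not given in the sources used here. Symbols and exon lengths came from GENCODE M21, which matched 35358 of 35458 identifiers. FPKM times exon length came in whole steps whose size is fixed within a library (92.1% to 93.4% of values under 200 implied reads lay within 0.02 of a whole number). That step gives the total and the implied reads, whose Poisson intervals cover counting error only.

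The 13956 genes that reached 1 FPKM in 3 or more libraries were tested as log2(FPKM + 1) with limma 3.58.1 in R 4.3.3, with an intensity trend, no term beside group, and Benjamini-Hochberg adjustment at 0.05 over all genes tested. The log2 differences understate changes of low genes. An exact permutation test of 3 against 3 libraries cannot go below p = 0.1 and was not used. The fit was also run on simulated data that held no libraries standing apart, so that run does not cover the spread seen here. Other settings were a pseudocount of 0.1, no filter, quantile normalization, a replicate block, libraries left out and limma-voom on implied reads. The members, lists, doubted libraries and tests were chosen with earlier results of these data known, and the motifs with the sequences in view. A further receptor is not reported here. Named by rule were the 10 members, the other chemokines that passed the filter, the 3 most abundant genes of each pathway list and the 3 genes nearest to Ccl3 and Ccl5. Outside that rule, genes overlapping a member and some cell type markers were also named. Further genes, among them Cd14, Cxcr2, Ccr3, Ackr1, Dpp4, Adam17 and Ifng, were named after their values were seen. Tables and plots were made with Python 3.11.15, pandas 2.3.3, numpy 2.4.6, scipy 1.17.1 and matplotlib 3.10.9.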

Additional observations from a re-analysis of the deposited data

How the results depend on the processing

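With all 6 libraries, 0 genes were called by limma (1646 at an unadjusted p under 0.05), and 0 by limma-voom on implied reads (1349 unadjusted). Leaving out each library in turn gave 0 to 1821 genes called and 0 to 4 members called. The 363 genes came without control 1 and the 1821 without KO 2, with 1 and 4 members. Ccl3, Ccl4, Ccl6, Ccl9 and Cxcl2 kept a lower estimate in every setting run. The sign of Ccl5 was negative after quantile normalization (-0.064), without control 2 and 3 (-0.089) and without KO 1 and 3 (-0.093), and ranged from -0.10 to 0.12 with each library left out. Cxcl10 was at -0.19, -0.57 and 1.39 in these settings, and between -0.51 and 0.47 with each library left out. Cxcl16 was at -0.055 without KO 1 and 3. The receptor median was -1.40 without KO 1 and 3. Cxcl9 was at 1.85 with a pseudocount of 0.1 and 2.05 by limma-voom. The other chemokines had a median of 0.12 without control 1, and the NF-kappaB list changed sign, from 0.38 without control 1 to -0.39 without control 2 and 3. Without control 2 and 3, the other chemokines had a median of -2.29 and the interferon gamma list of -0.013. Quantile normalization moved the median of all genes tested from 0.10 to -0.12, with 5890 higher and 8066 lower estimates against 7941 and 6015. For the paired analysis, deviations of same-numbered libraries correlated at 0.112, 0.0202 and 0.0175, and those of the other pairs at -0.207 to 0.139. The labels give no pairing beyond the number, and these values cannot show whether the libraries were paired. With the replicate block 0 genes and 0 members were called, with 1692 genes and 6 members at an unadjusted p under 0.05. The causes of these moves were not tested. In KO 1 and KO 3, Ccl4, Xcl1, Cxcl2, Cxcl9 and Cxcl10 rest on 4 to 31 implied reads, which limits them.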
